A study of Homo sapiens with 8 samples.

Results

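A small set of genes of plasminogen activation and coagulation was examined in ZR-shEI24 cells, and its 8 measured members were raised over both control lines. The set comprises the plasminogen activators PLAU and PLAT, the urokinase receptor PLAUR, the serpins SERPINE2 and SERPINB2, tissue factor (F3), its inhibitor TFPI, the related TFPI2, and thrombomodulin (THBD). It was chosen by gene symbol, 9 genes in all, and 8 of them were measured among the 18417 genes of the table. SERPINB2 was not analysed here. Each of the 8 was represented by 1 transcript cluster, the probe set of a gene on the array. All 8 rose against cells with a control shRNA, from 3.7-fold for THBD to 102.6-fold for TFPI2.

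Urokinase, encoded by PLAU, and tissue-type plasminogen activator, encoded by PLAT, are serine proteases that cut plasminogen into plasmin, which dissolves fibrin and degrades matrix at the cell surface. Serpins trap these proteases by forming stable complexes with them, and PLAUR holds urokinase at the membrane. Tissue factor is the membrane receptor of factor VIIa that starts coagulation, TFPI restrains that complex, and thrombomodulin turns thrombin toward the activation of protein C. Urokinase and its receptor are known for their part in the invasion of breast cancer cells.

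ZR-75-1 is a human line of luminal breast cancer that expresses the estrogen receptor. Total RNA was hybridized to Affymetrix arrays for 4 lines of it, with 2 arrays each: parental cells with no shRNA, cells carrying an shRNA against GFP (shGFP), and clones 1 and 2 carrying an shRNA against EI24, an etoposide-induced gene. The knockdown lines were stable and are given by the submitters as independent clones, so each is 1 clone. The study's methods give RPMI medium with serum for ZR-75-1 cells and name no drug treatment for the arrays. A selection drug for the shRNA lines is neither given nor excluded there. The sources used here do not say whether shGFP is a clone or a pool. Nor do they say whether both arrays of a line stand for separate cultures. In the main fit, p-values weigh a difference between lines only against how far arrays of a line differed, possibly for technical reasons. They do not weigh it against the spread between independent clones.

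EI24 mRNA checked the labels. It gave log2 intensities of 8.64 and 8.43 in clone 1, 9.25 and 9.19 in clone 2, 11.97 and 11.91 in shGFP, and 12.08 and 12.09 in parental cells, and their mean in the clones differed from shGFP by -3.06 (limma, SE 0.08, adjusted p = 8.6e-09). The luminal markers matched the label only in part in the clones. All 14 markers were lower than in shGFP in the mean of the clones, although AGR2 did not pass in clone 1 alone (adjusted p = 0.085 from limma). KRT8, KRT18 and XBP1 stayed bright, at percentiles 97.9, 96.9 and 92.3 of all genes in clone 1 and 98.7, 97.9 and 95.5 in clone 2. ESR1, CDH1 and GREB1 were among the dimmest 25% of genes in both clones and AGR2 in clone 2. None of the 14 was that dim in shGFP or parental cells, and the log2 of their summed intensity was 13.51 to 14.08 in the arrays of the clones and 15.89 to 15.99 in the control arrays. Their part in the results below was not tested. In total RNA of a culture, more cells of a type and more RNA per cell cannot be told apart.

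Members of the set that moved together also had upstream sequence to compare. RefSeq windows of GRCh38.p14 were at hand for 6 of the 8 genes (PLAU, PLAUR, SERPINE2, TFPI, TFPI2 and F3), in 8 windows, since PLAU and SERPINE2 have several starts. The 250 bases before each start were searched on both strands for the AP-1 motif TGANTCA, for TATAAA and for a general form of the NF-κB consensus that allows several letters at some positions and is looser than the motif used in the study. TGANTCA occurred before PLAUR, TFPI2 and F3, and in 6.57% of all 35116 such windows. This NF-κB form occurred before TFPI2 and in 5.21% of all windows, while TATAAA occurred before F3 and in 10.7%. The windows with a match are shown in lower case, 5′ to 3′ on the strand of the gene, with the matches in capitals. They are PLAUR at chr19:43670170-43670419, TFPI2 at chr7:93890754-93891003 and F3 at chr1:94541760-94542009, all on the minus strand.
PLAUR: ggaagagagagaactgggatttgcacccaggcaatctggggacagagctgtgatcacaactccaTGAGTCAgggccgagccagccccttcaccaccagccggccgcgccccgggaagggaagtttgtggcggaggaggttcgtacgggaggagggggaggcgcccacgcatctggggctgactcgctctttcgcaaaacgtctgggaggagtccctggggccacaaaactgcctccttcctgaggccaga
TFPI2: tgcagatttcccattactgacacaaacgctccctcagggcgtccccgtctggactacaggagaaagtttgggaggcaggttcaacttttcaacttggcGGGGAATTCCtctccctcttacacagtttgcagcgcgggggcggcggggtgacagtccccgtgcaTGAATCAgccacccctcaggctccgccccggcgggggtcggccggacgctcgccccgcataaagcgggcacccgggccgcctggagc
F3: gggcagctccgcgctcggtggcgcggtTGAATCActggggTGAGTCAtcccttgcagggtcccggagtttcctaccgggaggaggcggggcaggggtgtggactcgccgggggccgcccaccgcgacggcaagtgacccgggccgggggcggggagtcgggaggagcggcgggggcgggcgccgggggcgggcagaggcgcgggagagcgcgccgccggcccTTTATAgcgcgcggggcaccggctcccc
The match in PLAUR lies at positions -186 to -180 from the start. In TFPI2 the NF-κB match lies at -152 to -143 and TGAATCA at -87 to -81. F3 holds TGAATCA at -223 to -217 and TGAGTCA at -210 to -204, and its TATAAA is read on the other strand, at -28 to -23. These are matches of letters, and no binding was measured.

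Both plasminogen activators rose in each clone. The log2 intensity of PLAU was 12.16 and 12.13 in clone 1, 11.79 and 11.83 in clone 2, 6.40 and 6.86 in shGFP, and 6.89 and 6.87 in parental cells. All 4 arrays of the clones lay far above all 4 control arrays, by at least 4.90 on the log2 scale. Against shGFP the mean of the clones was higher by 5.35 (limma, SE 0.12, adjusted p = 2.9e-09), a 40.9-fold difference. The first shGFP array was the dimmest for PLAU, and leaving it out gave a log2 fold change of 5.12.

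PLAT moved further than PLAU, and with the opposite order of the clones. Its log2 intensity was 12.73 and 12.74 in clone 1, 13.13 and 13.15 in clone 2, 6.67 and 6.80 in shGFP, and 6.93 and 6.98 in parental cells. The knockdown arrays and the control arrays were 5.75 apart at their nearest. The log2 fold change against shGFP was 6.20 (limma, SE 0.07, adjusted p = 4.1e-10), or 73.4-fold. PLAT encodes the activator best known from endothelium, so markers of endothelial cells were read beside it. Of 12 such markers 6 rose, 2 fell and 4 did not pass, where 26.8% of all genes were higher and 29.0% lower. The 6 were ESAM, an adhesion molecule, by 2.44, the VEGF receptor gene KDR by 1.82, ROBO4 by 1.41, the receptor kinase TIE1 by 0.85 (1.26 in clone 1 and 0.44 in clone 2), PECAM1 by 0.52 and CLDN5 by 0.43. Against parental cells CLDN5 gave 0.31 and did not pass (adjusted p = 0.067 from limma). PECAM1, TEK and VWF were among the dimmest 25% of genes in every line. EMCN and ERG had log2 fold changes of -2.25 and -0.56. The log2 of the summed intensity of the 12 was 11.09 to 11.18 in the clones and 10.35 to 10.49 in the controls, and its part in the change of PLAT was not tested.

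The receptor that holds urokinase rose with its ligand. PLAUR had a log2 intensity of 11.59 and 11.57 in clone 1, 11.36 and 11.14 in clone 2, 7.44 and 7.33 in shGFP, and 7.67 and 7.77 in parental cells. Its groups did not overlap, and the log2 fold change against shGFP was 4.03 (limma, SE 0.09, adjusted p = 2.9e-09), or 16.3-fold. PLAUR is a known gene of monocytes, and 3 of 11 leukocyte markers rose, 8 did not pass and none fell, beside 26.8% of all genes higher and 29.0% lower. These were CD68, a lysosomal protein, by 3.95, CD14 by 0.89 and PTPRC by 0.21. Against parental cells PTPRC gave 0.13 and did not pass (adjusted p = 0.19 from limma). PTPRC, the pan-leukocyte gene, LYZ, CD163, CD3E, MS4A1, CD2 and FCGR3A were among the dimmest 25% in every line. The log2 of the summed intensity of the markers was 12.08 to 12.22 in the clones and 9.62 to 9.85 in the controls, and CD68 was the brightest of them in the clones.

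SERPINE2 encodes protease nexin 1, an inhibitor of thrombin and of both plasminogen activators. It had a log2 intensity of 9.47 and 8.99 in clone 1, 9.10 and 8.52 in clone 2, 6.03 and 5.88 in shGFP, and 6.04 and 5.93 in parental cells. The arrays within each clone were further apart than for any other of the 8 genes, with SDs of 0.34 and 0.41 (n = 2 arrays each), yet the lowest knockdown array was still 2.49 above the highest control array. The log2 fold change was 3.07 (limma, SE 0.18, adjusted p = 7.4e-07), or 8.4-fold.

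**Figure D1:**
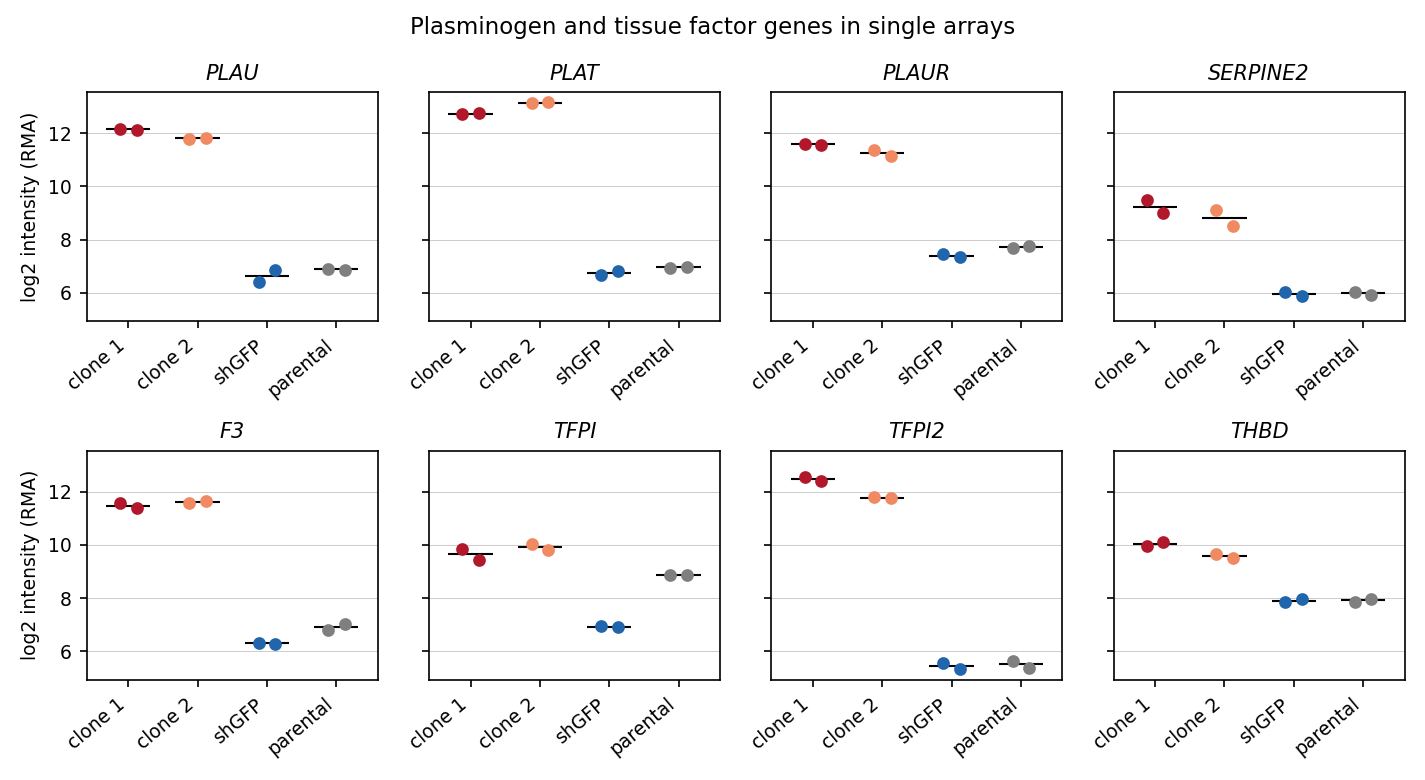
Log2 intensity of the 8 measured genes in both shEI24 clones and both control lines, 1 panel per gene. Each dot is 1 array and each bar the mean of a line: the clones lie above both control lines in every panel, and parental cells lie well above shGFP in the panel of TFPI, at 8.86 against 6.92.

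Tissue factor rose on the coagulation side of the set. F3 had a log2 intensity of 11.57 and 11.37 in clone 1, 11.57 and 11.64 in clone 2, 6.30 and 6.29 in shGFP, and 6.81 and 7.02 in parental cells. Its level lay close together in the clones and far above the controls, with a log2 fold change against shGFP of 5.24 (limma, SE 0.09, adjusted p = 1.2e-09), or 37.9-fold. Since parental cells held more F3 than shGFP, the fold change against parental cells was smaller, 4.62 on the log2 scale.

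TFPI2, a Kunitz inhibitor of plasmin and of other matrix-directed proteases, had the largest change of the 8 in the mean of the clones and in clone 1, while in clone 2 PLAT changed more. Its log2 intensity was 12.56 and 12.41 in clone 1, 11.78 and 11.74 in clone 2, 5.57 and 5.32 in shGFP, and 5.64 and 5.38 in parental cells. In the controls it lay among the dimmest genes, at percentile 11.2 of all genes in shGFP, whereas in the clones it was at percentiles 99.2 and 97.8. The log2 fold change against shGFP was 6.68 (limma, SE 0.11, adjusted p = 8.8e-10). SERPINE2 and F3 were also among the dimmest 25% in shGFP, at percentiles 18.0 and 22.9. Array intensities are compressed at the low end, so the folds of these 3 genes may be understated.

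TFPI, the Kunitz inhibitor of the tissue factor complex, was the gene whose change depended most on the control. Its log2 intensity was 9.84 and 9.43 in clone 1, 10.05 and 9.81 in clone 2, 6.95 and 6.90 in shGFP, and 8.88 and 8.85 in parental cells. The shGFP arrays alone were low, and parental cells came much nearer to the clones, with only 0.55 between the lowest knockdown array and the highest parental array. Against shGFP the log2 fold change was 2.86 (limma, SE 0.12, adjusted p = 1.2e-07), or 7.3-fold, and against parental cells it was 0.92 (limma, SE 0.12, adjusted p = 1.6e-04), or 1.89-fold. With each line as 1 replicate, and shGFP and parental cells pooled, TFPI did not pass (log2 fold change 1.89, adjusted p = 0.088 from limma), while the other 7 genes did.

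Thrombomodulin showed the smallest change against shGFP. THBD had a log2 intensity of 9.96 and 10.10 in clone 1, 9.66 and 9.51 in clone 2, 7.85 and 7.95 in shGFP, and 7.86 and 7.96 in parental cells. The control lines were alike and the clones lay above them, with a log2 fold change of 1.91 against shGFP (limma, SE 0.09, adjusted p = 1.8e-07), or 3.7-fold.

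**Figure D2:**
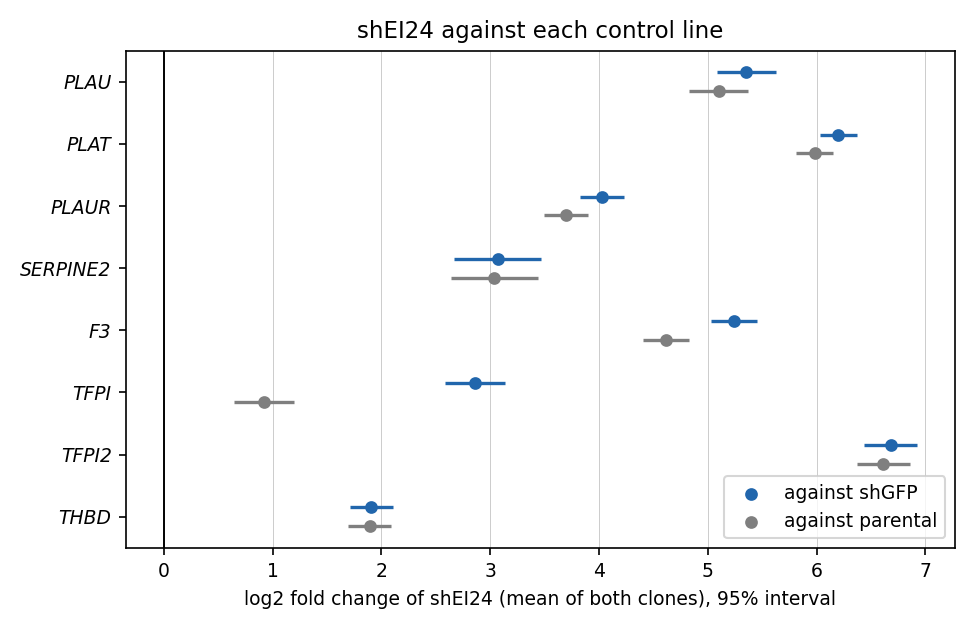
Log2 fold change of the mean of both shEI24 clones against shGFP (blue) and against parental cells (grey) for the 8 genes. Dots are estimates from limma and lines are 95% intervals: all lie above 0, and TFPI stands apart, at 2.86 against shGFP and 0.92 against parental cells.

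Across the set, 8 of 8 genes were higher in the clones than in shGFP, where 26.8% of all genes tested were higher and 29.0% lower at an adjusted p under 0.05 from limma. None was lower, also where p under 0.05 was taken without adjustment, in limma or the methods' t-test. Of the 8, 7 were at least 4-fold higher than in shGFP, against 3.56% of all genes. TFPI, among these 7, was 7.3-fold higher than in shGFP but 1.89-fold higher than in parental cells. All 4 knockdown arrays lay above all 4 control arrays for 8 of 8 genes, and for 23.8% of all genes. With parental cells as the control, 8 of 8 were higher, against 25.1% of all genes. The median log2 fold change of the 8 was 4.64, and that of all genes 0.08. The genes were picked with results of these arrays known, so these counts describe them and are no independent evidence.

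Each clone alone gave the same direction against the shared shGFP arrays. In clone 1, 8 of 8 genes were higher than in shGFP, against 23.0% of all genes, with log2 fold changes from 2.13 for THBD to 7.04 for TFPI2. In clone 2, 8 of 8 were higher, against 25.2% of all genes, from 1.69 for THBD to 6.40 for PLAT. The clones differed from each other in 3 of the 8 genes, where 15.2% of all genes differed in either direction. TFPI2 was more abundant in clone 1, by 0.72 on the log2 scale (limma, SE 0.12, adjusted p = 0.0053), and THBD by 0.44 (limma, SE 0.10, adjusted p = 0.019). PLAT was lower in clone 1, with a difference of -0.40 (limma, SE 0.09, adjusted p = 0.015).

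The other differences between the clones did not pass. They were 0.33 for PLAU (95% interval 0.02 to 0.65), 0.33 for PLAUR (0.10 to 0.56), 0.42 for SERPINE2 (-0.04 to 0.88), -0.29 for TFPI (-0.61 to 0.03) and -0.13 for F3 (-0.38 to 0.11). These intervals are for each gene alone, before adjustment over all genes. With the replicate number as a block, PLAUR passed (adjusted p = 0.035). The call for PLAT ended without clone 1 replicate 1 (adjusted p = 0.056), clone 2 replicate 1 (0.059) or clone 2 replicate 2 (0.071), that for THBD without clone 1 replicate 2 (0.083) or clone 2 replicate 2 (0.11), and TFPI passed without clone 1 replicate 1 (-0.50, adjusted p = 0.043), all from limma. All 3 calls ended with the methods' t-test after adjustment.

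The control lines differed in 2 genes, both lower in shGFP than in parental cells, where 7.44% of all genes were lower. TFPI was lower by a log2 difference of -1.94 (limma, SE 0.14, adjusted p = 1.8e-04), so that shGFP held 0.26 times the parental intensity. F3 was lower by -0.63 (limma, SE 0.11, adjusted p = 0.0089), a call that ended without shGFP replicate 1 (adjusted p = 0.072), shGFP replicate 2 (0.083) or parental replicate 2 (0.062). PLAUR gave -0.34 (95% interval -0.57 to -0.10, adjusted p = 0.073), which passed with the replicate number as a block (adjusted p = 0.039). Differences in PLAU, PLAT, SERPINE2, TFPI2 and THBD did not pass, at -0.25 (-0.57 to 0.06), -0.22 (-0.41 to -0.02), -0.03 (-0.49 to 0.43), -0.07 (-0.35 to 0.21) and -0.01 (-0.24 to 0.21). None of the 8 was higher in shGFP, also where p under 0.05 was taken without adjustment, in limma or the methods' t-test. With the methods' t-test and adjustment over all genes, neither TFPI nor F3 passed.

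**Figure D3:**
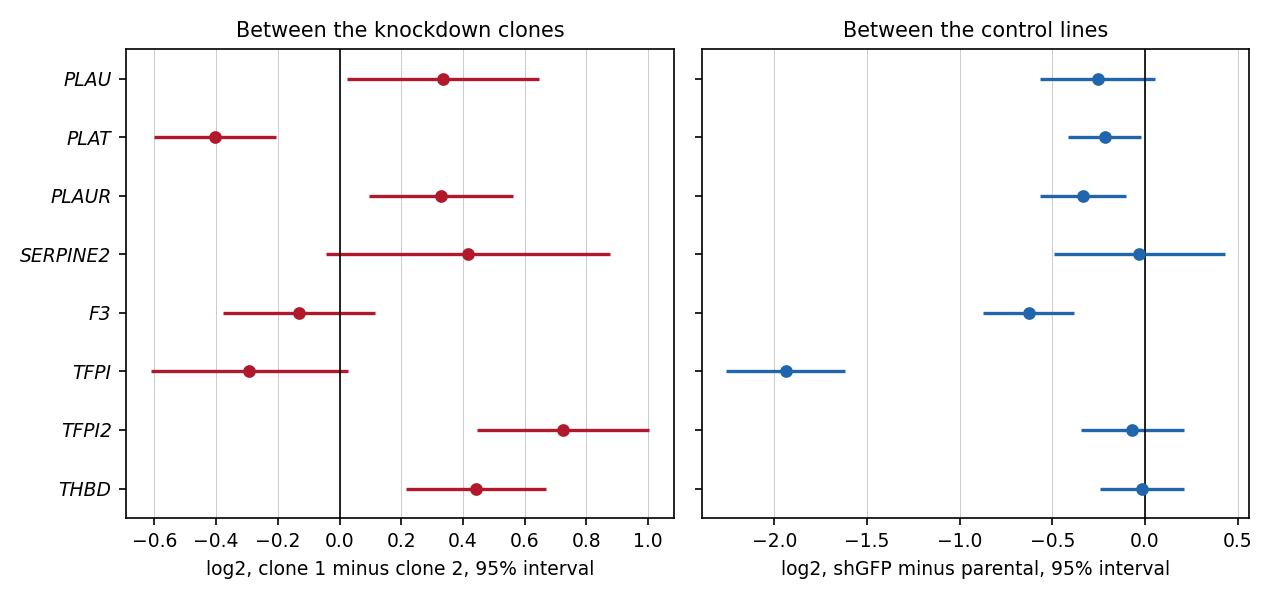
Log2 difference of clone 1 minus clone 2 (left) and of shGFP minus parental cells (right) for the 8 genes. Dots are estimates from limma and lines are 95% intervals of each gene alone: TFPI2 has the largest difference between the clones, 0.72, and TFPI the largest between the control lines, -1.94.

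Within the set, PLAU and F3 were nearest to each other over the 8 arrays, with a root mean square difference of 0.29 between their log2 profiles, each centered on its own mean. TFPI and TFPI2, which share the Kunitz fold, were the least alike, at 2.50. Among all other genes, the profile of PLAT was nearest to those of VIM, which encodes vimentin (0.16), and IFIT2, an interferon-induced gene (0.17). F3 was nearest to DAB2, an endocytic adaptor (0.14), and FN1, the fibronectin gene (0.15). PLAUR was nearest to LOXL2, a lysyl oxidase, and the Notch ligand JAG1 (0.11 each), and PLAU to CDCP1 (0.18) and SRGN (0.20). TFPI2 was nearest to NT5E, the CD73 gene, and PTGS2, the cyclooxygenase 2 gene (0.30 each). SERPINE2 lay nearest to MXRA7 (0.15) and CTSS, the cathepsin S gene (0.16), and THBD to ZFHX4 (0.08) and ZNF532 (0.10). The genes nearest to TFPI, TSPAN5 (0.21) and GULP1 (0.34), were also lower in shGFP than in parental cells, by log2 differences of -1.51 and -1.03. These distances describe 8 arrays of 4 lines. The profiles were not scaled, so genes with changes of like size lie near each other, and shared regulation was not tested.

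Genes on a broad list around the plasminogen system moved both ways. The list also takes in integrins, further serpins and membrane proteases. Against shGFP 17 of the 36 with a cluster rose and 4 fell, while 15 did not pass, beside 26.8% of all genes higher and 29.0% lower. The median log2 fold change was 0.21, and that of all genes 0.08. On the log2 scale the lower quartile of all genes was 6.54 to 6.68 in the clone arrays. It was 6.39 to 6.44 in the shGFP arrays and 6.37 to 6.47 in the parental arrays. Of the 36 genes, 13 were among the dimmest 25% in shGFP. The part of this offset of dim genes in the medians of this list and the next ones was not tested. Partners of PLAUR at the membrane were among those that rose: ITGA5, the fibronectin receptor subunit, by 4.51 (limma, SE 0.09, adjusted p = 1.9e-09) and ITGA3 by 3.51. SERPINB8, a serpin of clade B, rose by 3.51, and ANXA2, which with S100A10 binds plasminogen and PLAT at the cell surface, by 2.84, while S100A10 rose by 0.84. LRP1, which clears protease and inhibitor complexes, rose by 1.07. The plasminogen gene PLG rose by 0.51 but stayed dim, at log2 means of 6.33 and 6.42 in the clones and 5.87 in shGFP. Of the 4 that fell, PRSS8, the prostasin gene, had a log2 fold change of -3.32 (limma, SE 0.13, adjusted p = 6.8e-08), and ST14, the matriptase gene, of -2.24. HPN and F12 were lower by little, at -0.36 and -0.31. The call for HPN ended without clone 1 replicate 1, clone 2 replicate 1, shGFP replicate 1 or shGFP replicate 2 (adjusted p = 0.053, 0.070, 0.19 and 0.076 from limma), and that for F12 without shGFP replicate 1 or 2 (0.070 and 0.071).

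Among genes of coagulation and thrombin receptors, 14 of 34 rose and 4 fell, while 16 did not pass, again beside 26.8% of all genes higher and 29.0% lower, with a median of 0.23. The largest rises were those of GAS6, a vitamin K-dependent ligand, by 2.74 (limma, SE 0.12, adjusted p = 1.3e-07), PROS1, which encodes the cofactor protein S, by 2.58, PROCR, the endothelial protein C receptor, by 2.33 and F2R, the thrombin receptor PAR1, by 2.14. Protein C itself (PROC) gave 0.32 and did not pass (adjusted p = 0.11 from limma). F7, whose product binds tissue factor, had a log2 fold change of -0.39 against shGFP but 0.05 against parental cells, and its call ended without clone 1 replicate 1, clone 2 replicate 1, shGFP replicate 1 or shGFP replicate 2 (adjusted p = 0.071, 0.080, 0.15 and 0.12 from limma). F8 and VKORC1L1 were lower, at -0.58 and -0.73. VKORC1 was lower by -0.21, and leaving out any array of the clones or of shGFP ended that call (adjusted p = 0.062 to 0.23 from limma), as did a second quantile normalization, which gave -0.09 (adjusted p = 0.26). Where each line counted as 1 replicate, with controls pooled, 7 of the 34 rose and 2 fell.

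Among 30 other serpins 11 rose and 2 fell, while 17 did not pass, against the same shares of 26.8% and 29.0% of all genes, with a median of 0.21. The list shares 4 measured genes with that of the plasminogen system, 2 of which rose and are counted in both, and likewise 4 with that of coagulation, 2 of which rose. Of the serpins, 20 of the 30 were among the dimmest 25% of genes in shGFP. SERPINA1, the α1-antitrypsin gene, rose by 4.02 (limma, SE 0.10, adjusted p = 4.0e-09), SERPINB9, an inhibitor of granzyme B, by 2.66 and SERPINB1, an inhibitor of neutrophil elastase, by 1.43 (0.92 in clone 1 and 1.94 in clone 2). SERPINA3 had a log2 fold change of -0.79, which was -0.25 against parental cells and did not pass there (adjusted p = 0.15 from limma). SERPINF1 gave -0.36, a call that ended without the second array of clone 1, the first of clone 2 or the second of shGFP (adjusted p = 0.086, 0.073 and 0.28 from limma). With the dimmest 25% of genes left out, 5 serpins rose and 1 fell. Among 11 other genes with a Kunitz domain 5 rose, 2 fell and 4 did not pass, with a median of 0.26. Of all genes 26.8% were higher and 29.0% lower. Of the 11 genes, 3 were among the dimmest 25% in shGFP. The list includes the collagen genes COL6A3 and COL7A1, and whether the products inhibit proteases was not measured. APLP2, COL6A3 and APP rose by 0.95, 0.91 and 0.86, and COL7A1 by 0.39, a call that ended without clone 1 replicate 2, clone 2 replicate 2, shGFP replicate 1 or shGFP replicate 2 (adjusted p = 0.059, 0.060, 0.12 and 0.092 from limma). SPINT1 and SPINT2, which inhibit matriptase and related proteases of epithelia, had log2 fold changes of -1.09 and -0.47. In SPINT2 this was -0.81 in clone 1 and -0.13 in clone 2, which did not pass (adjusted p = 0.29 from limma), with a difference of -0.68 between the clones (adjusted p = 0.0020 from limma). In SPINT1 it was -1.50 and -0.69, and in COL6A3 1.47 and 0.36, with a clone difference of 1.11 in COL6A3 (adjusted p = 9.0e-04 from limma). Where each line counted as 1 replicate, with controls pooled, 6 serpins rose and 1 fell. Of the genes with a Kunitz domain, 2 rose and 1 fell there.

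Fibroblasts are another source of these inhibitors and activators, and their markers were read for that reason. Only PDGFRA rose, by 0.28, among the 12 on the array, none fell, 11 did not pass, and DCN, LUM, PDGFRA, FAP, POSTN and ASPN were among the dimmest 25% of genes in every line. The log2 of their summed intensity was 10.08 to 10.24 in the clones and 9.97 to 10.12 in the controls. Against parental cells PDGFRA gave 0.22 and did not pass (adjusted p = 0.078 from limma).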

How the data were processed

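Total RNA of 4 ZR-75-1 lines was hybridized to 8 Affymetrix arrays. Although the study's methods give an exon 1.0 st array, the identifiers of the 33297 transcript clusters are found in GEO's annotation of the related Human Gene 1.0 ST array. The deposited values are log2 intensities made by the authors with RMA (GCOS and RMA stand in the submitters' processing notes, with no version). This method subtracts background, gives all arrays nearly the same distribution and summarizes the probes of a cluster, so a shift of all genes alike would be removed and low values are compressed. Array medians were 7.28 to 7.39. Arrays of 1 line correlated at 0.993 to 0.997 over all clusters. The number of arrays limits the precision.

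Clusters with 1 gene symbol were kept (19460), the brightest per gene (18417 genes). A mean for each line was fitted over all 8 arrays with limma 3.58.1 in R 4.3.3 (lmFit, eBayes; 4 residual degrees of freedom), with Benjamini-Hochberg adjustment over all genes and a threshold of 0.05. The clones, averaged, were compared with shGFP first. In the labels, clone and replicate are the first and second number. Same-numbered arrays deviated together: the difference of replicate 1 and 2 correlated across genes between every pair of lines, at 0.25 to 0.59, so a fit with the replicate number as a block was run beside the main fit, although the labels do not say what the number stands for. The alternatives were another control, other arrays in the fit, each line as 1 replicate, another variance model, further normalization, leaving out dim genes, other cluster rules, a 2-fold threshold, the methods' t-test and leaving out each array. Named are all measured members, EI24, up to 4 genes each way per list with the largest called change, up to 4 called markers per marker list, the 2 genes with the nearest profile to each member, and clade B serpins next to SERPINB2. S100A10, LRP1, PLG, PROC, and markers beyond 4, were named after their values were seen. The set, the lists and the rules were chosen with earlier results of these data known.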

Additional observations from a re-analysis of the deposited data

Results flagged for a closer look

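PLAU in the 4 control arrays was flagged because the first shGFP array, at a log2 intensity of 6.40, lay far from the other three, at 6.86 to 6.89, and the gap was 0.93 of the range of the 4. The 4 arrays are of 2 lines. Of 16 groups of 4 arrays examined in this way, this was the only one flagged, and chance flags about 1 in 20 groups.

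The effect against shGFP differed between the clones in 3 genes, by a test of the difference itself with limma. It was larger in clone 1 for TFPI2, by 0.72 on the log2 scale, and for THBD, by 0.44, and smaller in clone 1 for PLAT, by -0.40.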

How the results depend on the processing

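All 8 genes were called higher against shGFP under every alternative except TFPI with each line as 1 replicate, and EI24 stayed lower, at -3.11 to -3.01 with an array left out. Between the clones 3 genes were called, 0 at 2-fold or more, 0 with the methods' t-test after adjustment, and 1 to 3 with an array left out, 1 without shEI24 clone 2 replicate 2. Between the controls 2 were called, 1 at 2-fold or more, 0 with the adjusted t-test, and 1 to 2 with an array left out, 1 without either shGFP array or parental replicate 2. The cause was not tested. With the replicate block, 4 genes were called between the clones and 3 between the controls, PLAUR being added each time (adjusted p = 0.035 and 0.039), and no other call on the 8 genes, EI24 or the named list genes changed. Without the block, 4 were also called between the clones with a variance trend or without the dimmest 25% of genes, and 3 between the controls with these, a second quantile normalization or the unadjusted t-test. The block also raised the calls over all 18417 genes. With it 2391 were higher and 1788 lower in clone 1 than in clone 2, against 1711 and 1083 in the main fit. Between the controls 2240 of all genes were lower in shGFP with the block, against 1370 in the main fit.

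Of the lists, the plasminogen system (21 called) had 13 at 2-fold or more and 17 to 23 with an array left out. Coagulation and thrombin receptors (18) had 9 with each line as 1 replicate, 6 at 2-fold or more and 12 to 19 with an array left out. Other serpins (13) had 7 with each line as 1 replicate, 6 without the dimmest 25% of genes, 5 at 2-fold or more, 5 and 8 with the t-test after and before adjustment, and 9 to 18 with an array left out. Genes with a Kunitz domain (7) had 3 with each line as 1 replicate, 1 at 2-fold or more and 5 to 7 with an array left out. With the t-test they had 2 after and 3 before adjustment. The 2-fold counts are lower because that threshold is stricter, and for the rest the cause was not tested.

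Against parental cells F7 gave 0.053. Differences of shGFP minus parental cells that were near 0 changed sign with an array left out: SERPINE2 ranged from -0.109 to 0.047, TFPI2 from -0.195 to 0.0603 and THBD from -0.0655 to 0.0359. Signal over background may limit the folds of TFPI2, SERPINE2 and F3, which were dim in shGFP.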

Other observations

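SERPINB2 lies in a run of clade B serpin genes on chromosome 18 in the gene order of GRCh38.p14, 9 genes in all with it. The 8 others were measured, and all 8 were dim in shGFP, at percentiles 1.4 to 14.8 of all genes. Against shGFP 2 of them rose, none fell and 6 did not pass, and the share that rose is near that of all genes, 26.8%. The run was ended on each side at the first protein-coding gene that is no clade B serpin, so clade B genes beyond it are not counted. SERPINB8, at percentile 26.9 in shGFP and higher by 3.51 in the clones, is not among the 9 genes. SERPINB7, the gene next to SERPINB2 on one side, rose from a log2 mean of 4.90 in shGFP to 6.04 in clone 1 and 5.59 in clone 2, a log2 fold change of 0.92 (limma, SE 0.16, adjusted p = 9.6e-04). SERPINB10, the gene next to it on the other side, gave 0.25 (adjusted p = 0.062 from limma). SERPINB4 rose by 0.28 (adjusted p = 0.031 from limma), and against parental cells it gave 0.24 and did not pass (adjusted p = 0.054 from limma). SERPINB5, known as maspin, gave 0.01 (adjusted p = 0.97 from limma).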
